A study of Mus musculus with 13 samples.

Results

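The genes described here encode the proteins of the mitochondrial ribosome, in mouse melanoma cells sorted from lung metastases of hosts that differed in their APOE allele. They were all protein-coding genes whose symbol begins with Mrpl (large subunit) or Mrps (small subunit) followed by a number. The table of 22656 genes held 78 of them, which is every such gene of the GENCODE M21 annotation, and 77 averaged 10 or more normalised counts across the 13 libraries. Of the 77, 48 were Mrpl and 29 were Mrps genes. Just inside this limit was Mrps18b, with a mean of 21.6, and outside it was Mrpl53, with reads in 1 library and a mean of 0.16. An exon of Mrpl53 overlaps Gm42688 on the same strand, so reads of both genes could have been assigned to either or to neither.

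B16F10-TR-shApoe cells, a line derived from the mouse melanoma B16F10 that carries a hairpin RNA against Apoe, were injected into the tail vein of knock-in mice. The hosts carried human APOE2 (8 libraries) or human APOE3 (5 libraries), and both groups received the same cells. On day 15 the lungs were digested, and living cells with GFP and without the leukocyte antigen CD45 were sorted, and libraries of the 3' ends of transcripts were made. The labels do not say that each library is a separate mouse, so p-values measure only the spread between libraries. The host's sex, age and strain background are not given in the sources used here, and the cells are 1 line, so the comparison is of host genotypes for this line alone.

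Mitochondria build part of the respiratory chain on ribosomes of their own. The rRNAs of these ribosomes are encoded by mitochondrial DNA, whereas all of the proteins are encoded in the nucleus, made in the cytosol and imported. Many members have a counterpart in bacterial ribosomes and others are specific to mitochondria. The names do not follow the structure in every case: Mrps30 and Mrps18a encode proteins that sit in the large subunit, and the product of Mrps36 is now placed in the alpha-ketoglutarate dehydrogenase complex.

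The cells had the markers of their labelled type. The 9 melanocyte markers had means from 2321 to 200932 normalised counts. Their sum ranged from 41926 to 57305 CPM (a share of the library's normalised counts) in APOE2 and from 34050 to 44680 in APOE3. This sum is weighted to Dct, which averaged 232522 normalised counts in APOE2 and 150389 in APOE3. By log2 fold change, 4 of the 9 were lower in APOE2 and the others higher. Total recovered reads ranged from 7080308 to 13039989 per library. RNA of other lung cells was present at a low level that differed between the groups. The 15 lung epithelium markers summed to between 76.7 and 496 CPM in APOE2 and between 431 and 2658 in APOE3, with Epcam and Scgb3a2 at 0 in the median library. Of the 13 that averaged 10 or more normalised counts, 12 were lower in APOE2 by log2 fold change. The exception was Scgb3a2, which reached 179 normalised counts in APOE2 replicate 2 and was 0 in every APOE3 library. Scgb1a1 was lower by log2 fold change, but its mean was 157 in APOE2, with 1065 in replicate 2, and 29.5 in APOE3. The 14 endothelial markers summed to between 90.4 and 146 CPM in APOE2 and between 135 and 301 in APOE3. The 13 fibroblast and smooth muscle markers summed to between 48.7 and 128 CPM and between 71.6 and 357. The 21 leukocyte markers summed to between 77.6 and 327 CPM and between 278 and 1514, with Cd3e, Cd3d, Cd79a, Ms4a1, Nkg7 and Adgre1 at 0 in the median library. Of the 21, 10 averaged 10 or more normalised counts, and 8 of these were lower in APOE2 by log2 fold change. The highest mean of a single gene was 2749 normalised counts, so the sum is weighted to few genes of the list. The 5 erythroid markers in the table averaged 10.98 and 10.82 CPM. In such bulk libraries, fewer cells of a type and less RNA per cell cannot be told apart.

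The promoters of the members are shown first, since letters known to be bound by regulators of mitochondrial genes recur in them. The motifs were searched on both strands in the 300 bases around each RefSeq start site (GRCm38.p6). They were CCGGAAG for factors of the ETS family, CGCATGCG for NRF1 and AAGATGGC for YY1, and no match in a member overlapped another. A promoter was listed for 68 of the 77 members. The ETS letters stood in 25 of the 68 promoters (36.8%), against 21.5% of the 8930 protein-coding genes tested that have a promoter in the table and 9.93% of all 27025 genes in it. The YY1 letters stood in 12 members (17.6%), against 5.61% and 3.19%. The NRF1 letters stood in 7 members (10.3%), against 4.65% and 2.07%. They stood in 6 of 42 Mrpl promoters (14.3%) and 1 of 26 Mrps promoters (3.85%), a difference that was not tested. At least 1 of the motifs was found in 37 of the 68 members (54.4%), against 29% of the protein-coding genes tested. The median GC content was 58% in the members' promoters and 61.2% in those of the protein-coding genes tested. These are matches of letters and not measured binding.

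The 250 bases before the start site are printed for the member with the smallest p-value in each subunit (Mrpl44 and Mrps21), for Mrpl52 as an example with the ETS letters, and for Mrps11, whose start site lies 41 bases from that of Mrpl46 on the other strand. Capitals mark the motif matches, which are on the strand opposite to the gene in both promoters that have one. The first 2 sequences hold none of the 3 motifs in this window. An ETS match of Mrps21 lies after its start site, from base 19 to base 25, and a further ETS match of Mrpl52 from base 3 to base 9.
Mrpl44, chr1:79775768-79776017, strand plus: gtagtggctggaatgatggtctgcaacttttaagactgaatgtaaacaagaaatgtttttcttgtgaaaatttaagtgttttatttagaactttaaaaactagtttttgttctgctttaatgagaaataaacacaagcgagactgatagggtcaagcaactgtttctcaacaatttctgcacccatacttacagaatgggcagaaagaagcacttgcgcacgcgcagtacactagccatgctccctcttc
Mrps21, chr3:95871515-95871764, strand minus: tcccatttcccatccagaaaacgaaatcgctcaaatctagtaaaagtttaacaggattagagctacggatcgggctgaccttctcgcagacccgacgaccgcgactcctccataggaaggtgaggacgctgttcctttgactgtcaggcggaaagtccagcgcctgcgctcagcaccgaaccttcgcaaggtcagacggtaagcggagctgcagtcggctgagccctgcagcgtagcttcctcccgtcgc
Mrpl52, chr14:54426659-54426908, strand plus: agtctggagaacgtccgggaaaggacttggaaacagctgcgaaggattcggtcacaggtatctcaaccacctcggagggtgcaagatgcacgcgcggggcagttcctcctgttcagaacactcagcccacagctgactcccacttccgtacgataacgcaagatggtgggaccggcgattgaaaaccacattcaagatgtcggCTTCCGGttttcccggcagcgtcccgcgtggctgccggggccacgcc
Mrps11, chr7:78782881-78783130, strand plus: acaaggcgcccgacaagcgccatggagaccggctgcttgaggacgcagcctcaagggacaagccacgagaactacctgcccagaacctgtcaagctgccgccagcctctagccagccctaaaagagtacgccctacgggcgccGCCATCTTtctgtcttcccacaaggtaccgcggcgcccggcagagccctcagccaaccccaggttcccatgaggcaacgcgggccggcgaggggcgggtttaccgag

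The members were expressed throughout the 13 libraries. Their summed counts made up 0.653% ± 0.0158 of the total in APOE2 hosts (SD, n = 8) and 0.631% ± 0.0237 in APOE3 hosts (SD, n = 5). The ranges, 0.630% to 0.674% and 0.599% to 0.665%, overlapped. Of the 77 genes, 69 had over 100 normalised counts in every library, 19 had a mean over 1000 and 4 had a mean under 100. The 4 were Mrps18b, Mrps36, Mrpl23 and Mrpl1. The highest means were those of Mrps24 among the Mrps genes (2555) and Mrpl12 among the Mrpl genes (1889). The library preparation reads 1 end per transcript, so these counts do not scale with transcript length, but levels of different genes are given here only as a range.

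Members varied little between libraries of a group. Their median coefficient of variation was 12.8% in APOE2 and 15.97% in APOE3. For the 2587 genes with means in the middle range of the members (372 to 995 normalised counts), it was 14.9% and 20.4%. The members' values cover all 77 genes, also those with means outside this range, so the sets compared differ in level. APOE3 replicate 2 was the lowest or highest of its group for 49 of the 77 members (63.6%) and for 53.2% of all genes tested.

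The comparison of hosts asked whether the mitochondrial ribosome genes of the tumour cells differed with the APOE allele. After Benjamini-Hochberg adjustment over all 12403 genes tested with limma, 0 of the 77 members were higher in APOE2 (0.411% of all genes tested were) and 0 were lower (0.379%). On recovered reads, edgeR's quasi-likelihood test also called 0 members higher (0.492% of all genes tested) and 0 lower (0.621%). DESeq2 called 2 as higher, Mrpl44 (adjusted p = 0.0357) and Mrps24 (adjusted p = 0.0442), against 1.23% of all genes tested, and 0 as lower, against 1.27%. At an unadjusted p-value under 0.05, 12 members (15.6%) were higher in APOE2, against 7.51% of all genes tested, and 3 were lower, against 6.71%. The 12 were Mrpl13, Mrpl32, Mrpl36, Mrpl44, Mrpl52, Mrpl54, Mrpl57, Mrps10, Mrps21, Mrps24, Mrps26 and Mrps35, and the 3 were Mrpl16, Mrpl46 and Mrps34. Log2 fold changes, always APOE2 minus APOE3 on the log2(normalised count + 1) scale, were above 0 for 50 of 77 members (64.9%) and for 50.1% of all genes tested. Their median was 0.13, against 0.00037 over all genes tested, and they ran from −0.46 to 0.97. The 95% interval lay wholly between −0.5 and 0.5 for 45 members and between −1 and 1 for 72. Among the 45 members whose exons overlap no other gene, the median was also 0.13, with 29 above 0. In a fit that also held the mean of the lung epithelium markers, 50 members were above 0, and the median over all genes tested was 0.018. At an unadjusted p under 0.05 in that limma fit, 9 members were higher and 2 lower. The shares over all genes tested were 4.44% and 3.47%.

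**Figure D1:**
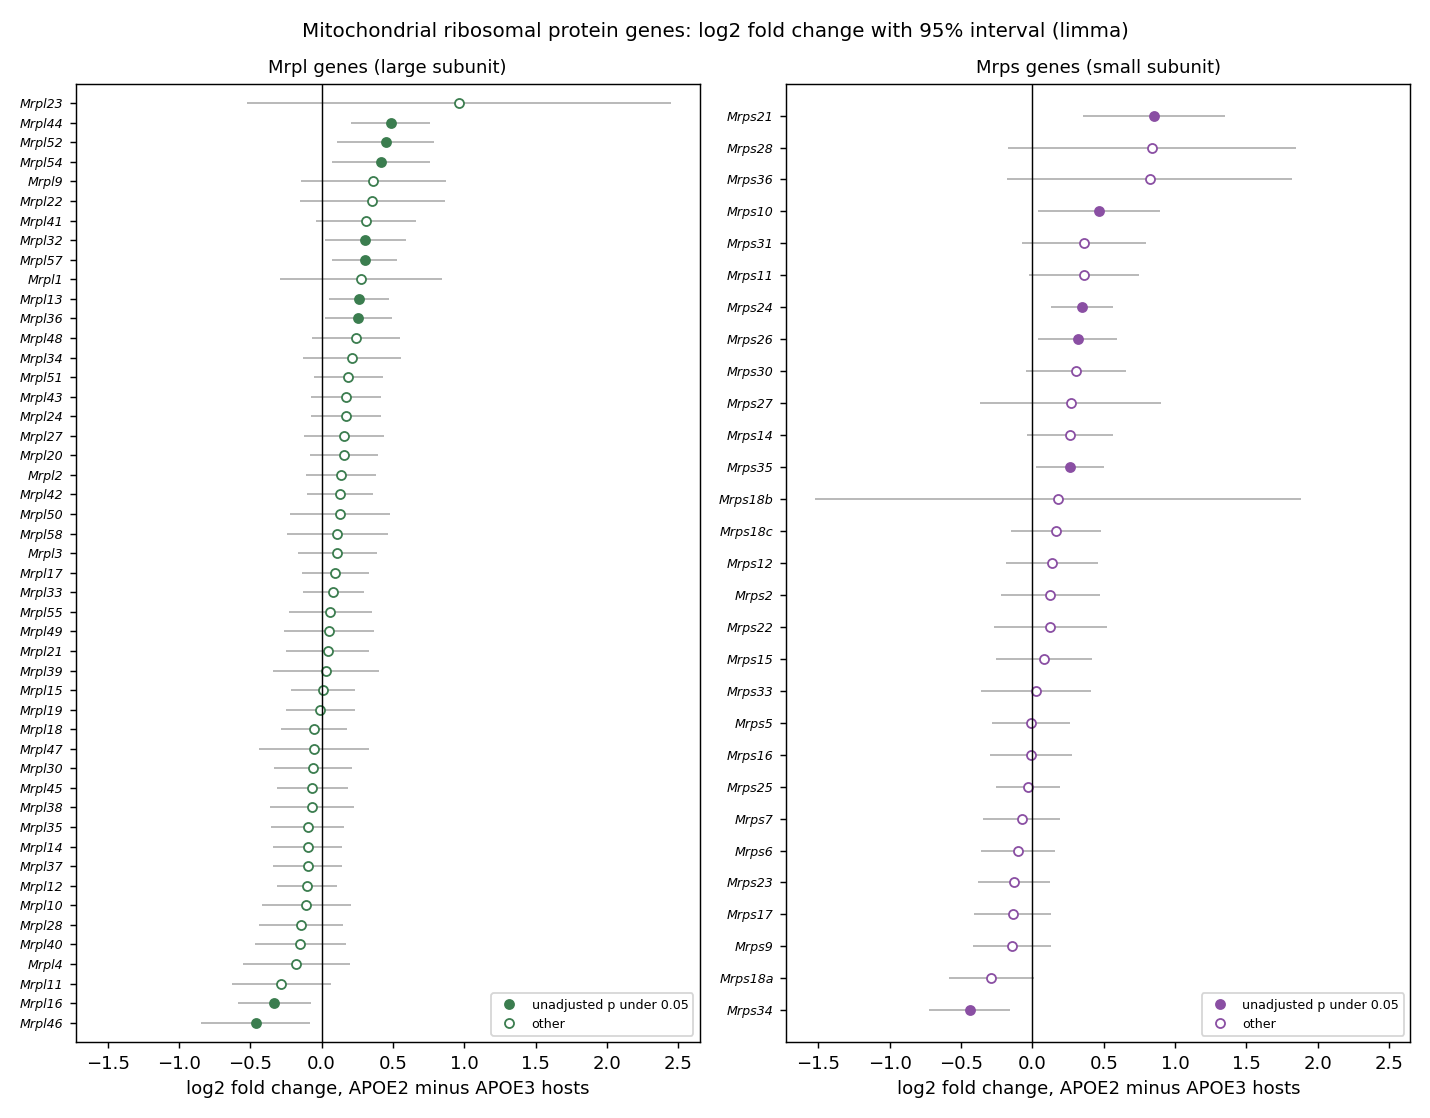
Log2 fold change (horizontal axis, APOE2 minus APOE3 hosts) of each of the 48 Mrpl genes (left) and 29 Mrps genes (right), sorted by size; grey lines are 95% intervals from limma over 8 and 5 libraries, and filled points have an unadjusted p under 0.05. Of the 77 points, 50 lie right of 0, and the widest intervals belong to the low-count genes Mrpl23 and Mrps18b.

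Among large subunit genes, Mrpl44 had the smallest p-value. It encodes a protein with the fold of a bacterial ribonuclease and lies at chr1:79776018-79781445 (GRCm38, plus strand). Its normalised counts in APOE2 had a lowest value of 1054, a median of 1252 and a highest value of 1571, and in APOE3 replicates 1 to 5 they were 1044, 595, 918, 1036 and 1030. Every APOE2 library was above every APOE3 library, which was so for 2 members and for 0.476% of all genes tested. The means were 1273 ± 143 (SD, n = 8) and 924 ± 191 (SD, n = 5), and the log2 fold change was 0.48 ± 0.13 (SE, limma adjusted p = 0.0925). Without APOE3 replicate 2, the low library, it was 0.33 (limma adjusted p = 0.163). Mrpl13, a counterpart of bacterial protein L13, was the other member whose groups did not overlap. Its lowest, median and highest values were 1359, 1456 and 1634 in APOE2, and 1348, 1321, 996, 1283 and 1214 in APOE3. The gap between the groups was thus narrow, and the log2 fold change was 0.26 ± 0.10 (SE, limma adjusted p = 0.249). The genes Wdfy1 and Mtbp overlap exons of Mrpl44 and Mrpl13 on the opposite strand, in neither case within the last 500 bases of the member.

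Another 3 proteins of the large subunit that are specific to mitochondria were among the 8 Mrpl genes with the smallest p-values and had positive fold changes. Mrpl57 had 1193, 1366 and 1542 (lowest, median, highest) in APOE2 and 1231, 1233, 1095, 1081 and 892 in APOE3 (log2 fold change 0.30 ± 0.11 SE, limma adjusted p = 0.211). Mrpl52 had 1213, 1814 and 3107 in APOE2 and 1551, 1491, 1299, 1336 and 1098 in APOE3 (log2 fold change 0.45 ± 0.16 SE, limma adjusted p = 0.212). Mrpl54 had 518, 1004 and 1242 in APOE2 and 660.5, 785, 699, 626 and 588 in APOE3 (0.42 ± 0.17 SE, adjusted p = 0.254 by limma). For Mrpl52 and Mrpl54 the same APOE2 libraries were at the ends of the range, replicate 1 the highest and replicate 3 the lowest. In each of the 3 genes the groups overlapped. Mrpl36, a small counterpart of bacterial L36, had 731, 785 and 983 in APOE2 and 713, 672, 612, 751 and 656 in APOE3, and its lowest APOE2 value was below its highest APOE3 value.

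Mrpl16 and Mrpl46 had the most negative values of the large subunit. Mrpl16, a counterpart of bacterial L16, had 534, 590.3 and 737 (lowest, median, highest) in APOE2 and 707, 971, 702, 755 and 731 in APOE3, where replicate 2 stood above the rest. Its log2 fold change was −0.33 ± 0.12 (SE, limma adjusted p = 0.221), and −0.25 without that library (limma adjusted p = 0.397). Mrpl46 had 204, 283 and 382 in APOE2 and 481, 498, 399.6, 439 and 238 in APOE3, so that 4 of the 5 APOE3 libraries were above every APOE2 library and replicate 5 was within the APOE2 range. The log2 fold change of −0.46 ± 0.18 (SE, limma adjusted p = 0.254) was −0.65 at its strongest and −0.38 at its weakest when 1 library was left out.

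Mrpl46 shares its promoter region with Mrps11, as printed above, and the pair did not have the same sign. Mrps11 had 228, 268 and 362 in APOE2 (lowest, median, highest) and 269.7, 133, 230.0, 274 and 191 in APOE3, with the groups overlapping. Its log2 fold change was 0.36 ± 0.19 (SE, limma adjusted p = 0.383), and 0.19 without APOE3 replicate 2. The annotation gives the pair 173 exonic bases in common at their starts, on opposite strands and outside the last 500 bases of either gene. The difference between the 2 fold changes was not tested, and the pair was singled out after its values were seen.

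The proteins of the stalk that recruits translation factors gave small values. Mrpl10, at the base of the stalk, had a log2 fold change of −0.11 ± 0.15 (SE) and Mrpl12, which forms the stalk and also binds mitochondrial RNA polymerase, −0.10 ± 0.10 (SE). For Mrpl12 the 95% interval was −0.32 to 0.11, with values of 1590, 1846 and 2094 (lowest, median, highest) in APOE2 and 2132, 2186, 1823, 1719 and 2008 in APOE3. Mrpl58, a peptidyl-tRNA hydrolase that frees stalled ribosomes, had 0.11 ± 0.17 (SE), and 0.25 without APOE3 replicate 2. The highest Mrpl value, 0.97 ± 0.72 (SE) for Mrpl23, came from a gene with few reads: it had 14.7, 33.1 and 77.2 normalised counts in APOE2 (lowest, median, highest) and 44.2, 4.52, 36.4, 0.941 and 115 in APOE3. The means were nearly equal, 39.5 and 40.1, and the sign was negative with edgeR (−0.0087), with DESeq2 (−0.018) and with the lung epithelium covariate (−0.13).

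**Figure D2:**
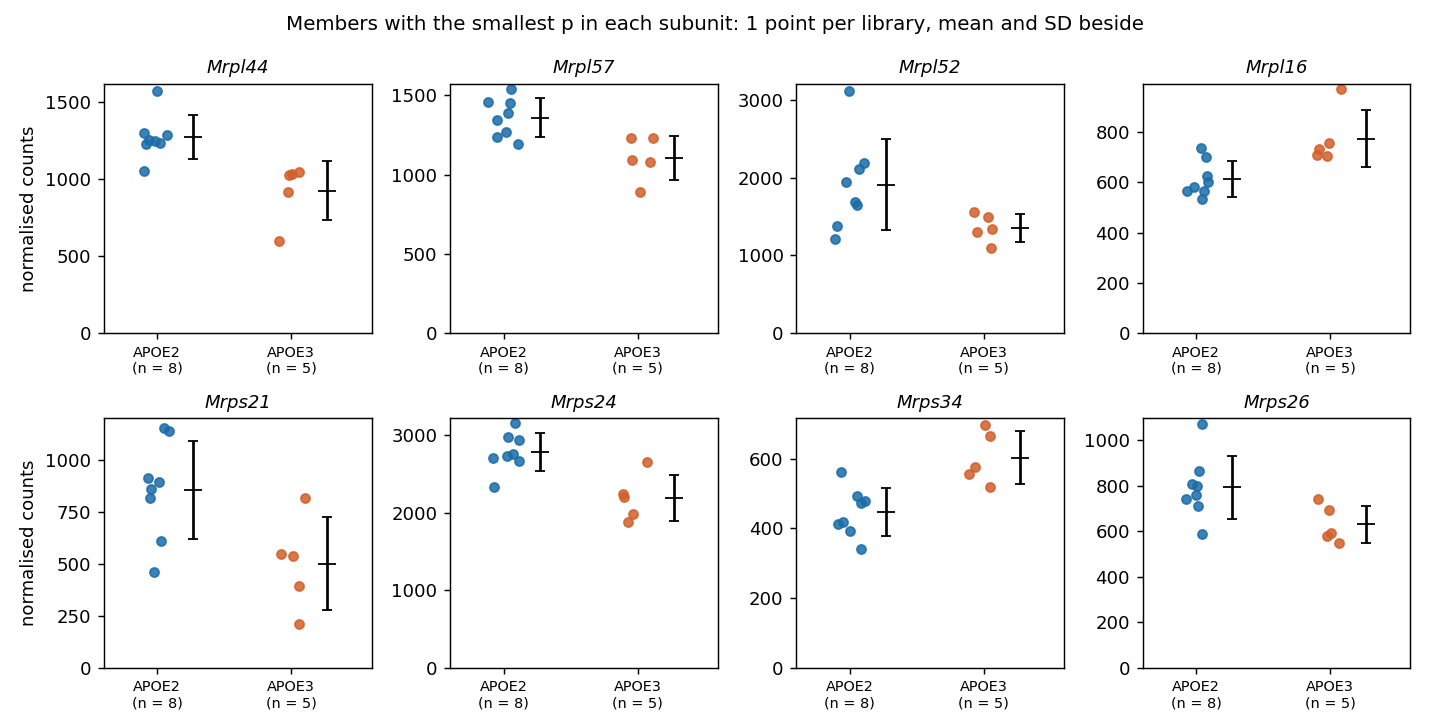
Normalised counts (vertical axis, from 0) of the 4 Mrpl genes (upper row) and 4 Mrps genes (lower row) with the smallest p-values; each point is 1 library, blue for APOE2 hosts (n = 8) and orange for APOE3 hosts (n = 5), and bars show mean and SD. Only Mrpl44, of these 8, has every APOE2 library above every APOE3 library.

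In the small subunit, Mrps21 had the largest positive fold change and the smallest p-value. It encodes the counterpart of bacterial S21 and lies at chr3:95862634-95871519 (minus strand). Its normalised counts had a lowest value of 463, a median of 878 and a highest value of 1153 in APOE2, and were 546, 211, 393, 539 and 816 in APOE3. The 8 APOE2 libraries were all above the APOE3 average on the log2 scale, but APOE2 replicate 6 and APOE3 replicate 5 made the groups overlap. The means were 857 ± 237 (SD, n = 8) and 501 ± 222 (SD, n = 5), with a log2 fold change of 0.85 ± 0.24 (SE, limma adjusted p = 0.103). Adjusted p-values of limma were 0.0440 without APOE2 replicate 6 and 0.0403 without APOE3 replicate 5, and the log2 fold change was 0.57 without APOE3 replicate 2 (adjusted p = 0.205).

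Mrps24, whose product corresponds to bacterial S3 at the entry of the mRNA channel, lies at chr11:5703983-5715680 (minus strand). It had 2332, 2742 and 3153 (lowest, median, highest) in APOE2 and 2651, 2239, 1989, 2203 and 1879 in APOE3, where replicate 1 was within the APOE2 range. Its log2 fold change was 0.35 ± 0.11 (SE, limma adjusted p = 0.125), and the adjusted p was 0.0453 without APOE3 replicate 1. Exons of Mrps24 overlap Urgcp on the same strand, outside the last 500 bases. Mrps34, specific to mitochondria, had the most negative value of the small subunit. It had 339.9, 447 and 561 in APOE2 and 577, 698, 520.3, 556 and 666 in APOE3, with a log2 fold change of −0.44 ± 0.14 (SE, limma adjusted p = 0.142). All 8 APOE2 libraries were below the APOE3 mean of log2 values, and the 2 ranges overlapped. Mrps34 shares exonic bases near its end with Nme3 (mean 0.309 normalised counts) on the same strand and with Mapk8ip3 on the opposite strand, so its counts are uncertain to that extent.

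Mrps26, Mrps35 and Mrps10 had positive values with unadjusted p-values from 0.0258 to 0.0331. Mrps26, specific to mitochondria, had 589.5, 781 and 1071 in APOE2 and 742, 693, 594, 549.8 and 581 in APOE3 (log2 fold change 0.32). Mrps35, also specific to mitochondria, had 703, 781 and 931 and 702, 606, 664, 744 and 597 (0.26). Mrps10, the counterpart of bacterial S10, had 241, 269.8 and 351 and 322, 111, 169.6, 273 and 209 (0.47, and 0.25 without APOE3 replicate 2). In all 3 genes the groups overlapped.

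The 3 genes named for S18, which descend from 1 bacterial protein, gave different signs. In the structural classes below, Mrps18c is counted as the bacterial counterpart, and Mrps18a and Mrps18b are counted as specific to mitochondria. Mrps18a, in the large subunit, had a log2 fold change of −0.29 ± 0.14 (SE, limma adjusted p = 0.367), and Mrps18c, in the small subunit, 0.17 ± 0.15 (SE). For Mrps18b, at 20.99 ± 14.9 and 22.6 ± 14.8 normalised counts (SD), the value was 0.18 ± 0.83 (SE), with a 95% interval from −1.52 to 1.88. Its sign was negative under other settings given in the closing section. Mrps30, the other gene of the large subunit with an Mrps name, had 0.31 ± 0.17 (SE), and Mrps36 had 0.82 ± 0.48 (SE) at 38.2 ± 12.3 and 24.9 ± 15.7 normalised counts (SD).

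The large and small subunits were then set side by side. The median log2 fold change was 0.10 over the 48 Mrpl genes, with 31 above 0, and 0.14 over the 29 Mrps genes, with 19 above 0. The order of these medians turned without APOE2 replicate 5 (0.093 and 0.089) and without APOE3 replicate 4 (0.12 and 0.11). At an unadjusted p under 0.05, 7 Mrpl genes were higher and 2 lower in APOE2, and 5 Mrps genes were higher and 1 lower. The higher genes were 14.6% of the Mrpl and 17.2% of the Mrps genes. Over all genes tested, 7.51% were higher and 6.71% lower. The mean log2 value of the Mrpl genes in a library was 9.26 ± 0.047 for APOE2 (SD, n = 8) and 9.16 ± 0.073 for APOE3 (SD, n = 5), which differ by 0.098. For the Mrps genes it was 8.72 ± 0.11 and 8.55 ± 0.12 (SD), which differ by 0.17. Both means were highest in APOE2 replicates 1 and 2. APOE3 replicate 1 was within the APOE2 range in both, and APOE2 replicate 6 was the lowest of its group in both. The lung epithelium markers summed to 431 CPM in APOE3 replicate 1, the lowest of that group, and to 440.5 in APOE2 replicate 6. They summed to 449 CPM in APOE2 replicate 1 and 438 in APOE2 replicate 2. The APOE2 group ran from 76.7 in replicate 3 to 496 in replicate 7. The part of these markers in the subunit means was not tested. With their mean as a covariate the medians were 0.093 and 0.13.

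The difference between the subunit means within a library was 0.53 ± 0.070 for APOE2 (SD, n = 8) and 0.61 ± 0.089 for APOE3 (SD, n = 5). The values in APOE3 replicates 1 to 5 were 0.54, 0.63, 0.51, 0.63 and 0.73, and in APOE2 the lowest was 0.43, the median 0.52 and the highest 0.68. The groups overlapped, and the change of −0.073 in the difference was about the size of the spread between libraries. With Mrps30 and Mrps18a counted in the large subunit and Mrps36 left out, it was −0.064. The ratio of the summed counts, large to small, was 1.98 ± 0.062 for APOE2 (SD, n = 8) and 1.99 ± 0.053 for APOE3 (SD, n = 5).

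**Figure D3:**
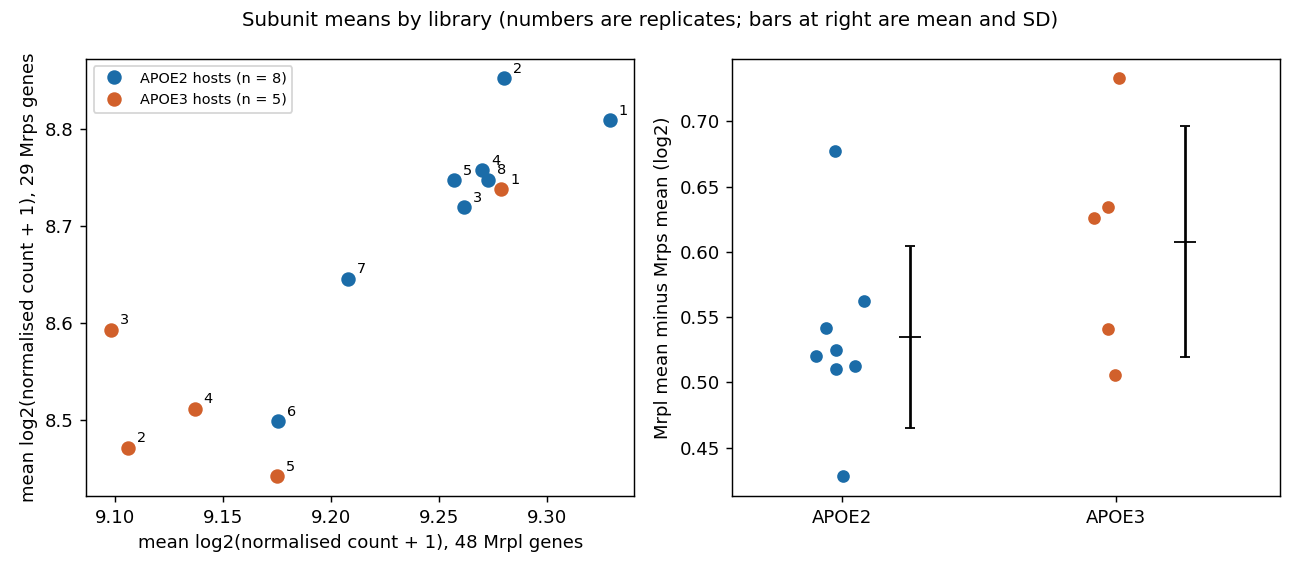
Left, mean log2(normalised count + 1) of the 48 Mrpl genes (horizontal) and the 29 Mrps genes (vertical) in each library, numbered by replicate; right, the Mrpl mean minus the Mrps mean, with mean and SD beside the points. APOE3 replicate 1 lies among the APOE2 libraries and APOE2 replicate 6 near the APOE3 libraries, and the differences at right overlap between the groups (0.43 to 0.68 and 0.51 to 0.73).

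By structure, the median log2 fold change was 0.072 over the 30 genes of the large subunit with a bacterial counterpart (18 above 0) and 0.13 over the 20 that are specific to mitochondria (14 above 0). In the small subunit it was 0.13 over 16 genes with a bacterial counterpart (10 above 0) and 0.15 over 10 specific genes (7 above 0). At an unadjusted p under 0.05, these classes held 3, 4, 3 and 2 higher genes and 1, 1, 0 and 1 lower genes. The higher genes were 10%, 20%, 18.8% and 20% of their classes, against 7.51% of all genes tested. The quartiles of the classes overlapped, and differences between the classes were not tested.

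Genes that work with the mitochondrial ribosome were taken from lists of its other proteins, its assembly, its translation factors, its tRNA synthetases and mitochondrial transcription. Of 5 mitoribosome proteins without an Mrp symbol, 1 passed the adjusted test by limma as higher, against 0.411% of all genes tested. Gadd45gip1, which encodes a protein of the large subunit at the exit of the peptide tunnel, was higher in APOE2. Its normalised counts were 753 at the lowest, 933 at the median and 1184 at the highest in APOE2, and 595, 756, 673, 682 and 449 in APOE3, so the groups met only at APOE3 replicate 2 and APOE2 replicate 4. The log2 fold change was 0.63 ± 0.14 (SE, limma adjusted p = 0.0365). Leaving out single libraries gave adjusted p-values from 0.0224 to 0.101, over 0.05 in 8 of 13 cases (without APOE2 replicate 1, 2, 5, 7 or 8 or APOE3 replicate 3, 4 or 5), and it was 0.0316 with edgeR and 0.00389 with DESeq2. It was also over 0.05 with no filter (0.0964), without the variance trend (0.161, a fit that called 0 of all genes), with the replicate number as a block (0.127, at a log2 fold change of 0.67) and with the lung epithelium covariate (0.242, at 0.76, a fit that called 1 gene higher and 1 lower). Dap3, a GTP-binding protein of the small subunit, had −0.20 ± 0.14 (SE).

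Of 26 assembly and rRNA modification genes, 0 passed the adjusted test by limma, and the median log2 fold change was 0.10. At an unadjusted p under 0.05 there were 2 higher (7.69%, against 7.51% of all genes tested) and 2 lower (against 6.71%). Malsu1, which keeps the large subunit from joining too early, had 2197 ± 248 (SD, n = 8) and 1706 ± 216 (SD, n = 5) normalised counts, and Mpv17l2, which takes part in assembly, 303 ± 37.2 and 418 ± 97.9. Their log2 fold changes were 0.37 ± 0.11 and −0.44 ± 0.16 (SE), with limma adjusted p-values of 0.123 and 0.202. DESeq2 gave an adjusted p of 0.0439 for Malsu1, and Mpv17l2 was at −0.32 without APOE3 replicate 2. Of 14 translation factors and 20 mitochondrial aminoacyl-tRNA synthetases (with the related amidotransferase subunits), 0 passed by limma, also at an unadjusted p under 0.05, and the medians were 0.020 and 0.082. The elongation factor Tufm had −0.34 ± 0.19 (SE), the insertase Oxa1l −0.21 ± 0.14, the methionyl enzyme Mars2 −0.35 ± 0.23 and the valyl enzyme Vars2 −0.28 ± 0.22 (−0.13 without APOE3 replicate 2).

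Of 9 genes of mitochondrial transcription and mRNA handling, 7 were past the limit, 5 of them above 0, with a median of 0.35. None passed the adjusted test by limma. At an unadjusted p under 0.05, 2 were higher, Slirp and Tfam (28.6%, against 7.51% of all genes tested). Slirp, which with Lrpprc stabilises mitochondrial mRNA, had 2397, 2783 and 3064 (lowest, median, highest) in APOE2 and 2393, 1429, 1971, 2298 and 2140 in APOE3. Every APOE2 library was above every APOE3 library, by a small margin, and the log2 fold change was 0.45 ± 0.12 (SE, limma adjusted p = 0.0696). The adjusted p was 0.0323 without APOE3 replicate 1, the only 1 of 13 left-out libraries to bring it under 0.05, and up to 0.153 without others. It was 0.0186 with DESeq2, 0.0812 with edgeR, 0.257 with the replicate block and 0.465 with the lung epithelium covariate. Without APOE3 replicate 2 the log2 fold change was 0.33 (limma adjusted p = 0.130). Slirp overlaps Snw1 on the opposite strand at its end. Tfam, which packages mitochondrial DNA and starts its transcription, had 0.34 ± 0.15 (SE, limma adjusted p = 0.308). The rRNAs around which the proteins assemble had −0.030 ± 0.14 (SE) for mt-Rnr1 of the small subunit and −0.17 ± 0.13 (SE) for mt-Rnr2 of the large subunit. Since the libraries start from poly(A), these rRNA values cover only molecules that were primed.

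**Figure D4:**
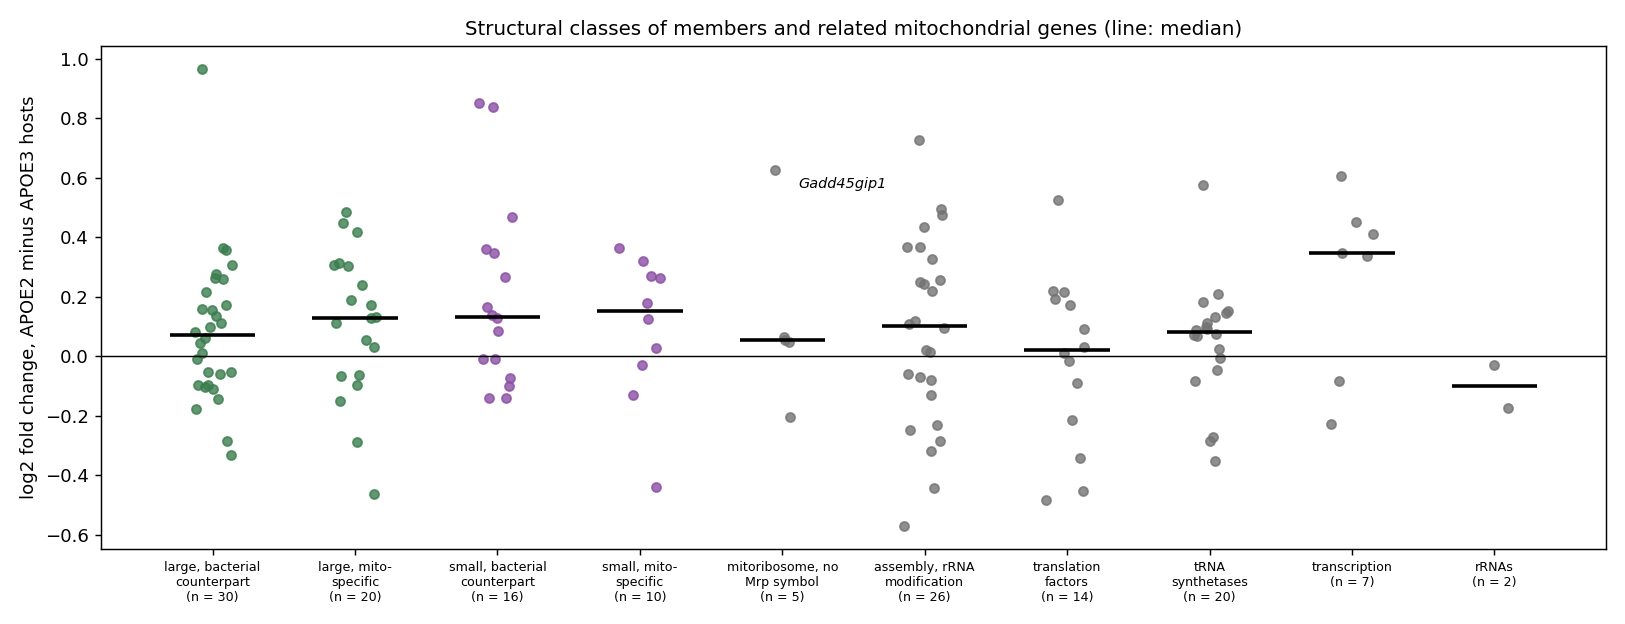
Log2 fold change (vertical axis, APOE2 minus APOE3 hosts) of each member by structural class (green, large subunit; purple, small subunit; Mrps36 left out) and of each related gene (grey), with the number of genes under each group and its median as a black line. Class medians lie between 0.072 and 0.15, and Gadd45gip1, the labelled point, is the gene with an adjusted p under 0.05.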

How the data were processed

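The 13 libraries hold 3' ends of transcripts (QuantSeq forward kit), per the labels' protocols, and the submitters' processing notes name STAR 2.6.0, featureCounts, DESeq2 1.28.1 and build mm10; the annotation and strand setting are not given in the sources used here. The authors deposited normalised counts, a signal per gene, and whole reads were recovered by dividing each column by its step (100% of nonzero values within 0.01 of a whole number). Totals per library are in the report; reads carry no molecular identifiers. Symbols came from GENCODE M21 (22649 of 22656 identifiers), promoters from RefSeq on GRCm38.p6. Values were taken as log2(value + 1), genes with a mean of at least 10 were tested with limma 3.58.1 (variance trend, two-sided) in R 4.3.3, and p-values were adjusted over all 12403. Alternatives were other pseudocounts, scalings and filters, each library left out, edgeR 4.0.16 and DESeq2 1.42.0 on recovered reads, a replicate block, a lung epithelium covariate and subunits by structure. Named genes were the 8 per subunit with the smallest p, the extremes of fold change and mean, 8 genes fixed for their structure or function and 2 per related list. Members and lists were chosen with earlier results of these data known. Scripts were tested on simulated data. An item on overlapping annotation is not reported here.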

Additional observations from a re-analysis of the deposited data

Results flagged for a closer look

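Within each group, the highest or lowest library was compared with its neighbour for the named genes and the subunit summaries. Of 80 groups screened, 5 held a value that stood apart, on 3 libraries; chance marks about 1 in 20 groups, which would be 4.

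APOE3 replicate 2 stood apart in 3 genes: it had 595 normalised counts of Mrpl44 against 918 to 1044 in the other APOE3 libraries, 971 of Mrpl16 against 702 to 755, and 447 of Mrpl58 against 248 to 293. APOE2 replicate 6 had 237 normalised counts of Mrps18a, against 295 to 346 in the other APOE2 libraries. APOE2 replicate 3 had 236 of Mars2, against 79.1 to 141.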

How the results depend on the processing

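Across the alternative settings the large subunit median stayed between 0.063 and 0.12, the small subunit median between 0.089 and 0.23, and the large minus small difference between −0.11 and −0.042. The count of members higher in APOE2 after adjustment was 0 in limma with all libraries and no replicate block, and 2 with DESeq2. It was between 0 and 1 when 1 library was left out. The single gene was Mrps21 without APOE2 replicate 6 or APOE3 replicate 5 and Mrps24 without APOE3 replicate 1. No member was lower after adjustment in any setting run. At an unadjusted p under 0.05 the higher count ran from 8 to 16 and the lower from 3 to 4 with 1 library left out. The shares over all genes tested moved in the same fits, from 6.32% to 8.81% higher and from 5.69% to 7.45% lower. After adjustment, between 0.0403% and 1.06% of all genes tested were higher in these fits. The cause of these moves was not tested. Same-numbered libraries did not deviate together over all genes tested (correlations from −0.063 to 0.014), and the labels name no pairing. A batch that acts on few genes was not tested. With the replicate number as a block, replicates 6, 7 and 8, which only APOE2 has, add nothing to the comparison of hosts. In this fit 1 member, Mrps21, was higher after adjustment, against 0.137% of all genes. At an unadjusted p under 0.05 in that fit, 6 members were higher and 1 lower (5.59% and 5.31% of all genes).

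Among the genes named by the stated rule, signs changed for 3. Mrps18b was −0.035 with a pseudocount of 5, −0.10 with edgeR, −0.11 with DESeq2, −0.029 without APOE2 replicate 4 and −0.78 without APOE3 replicate 5 (from −0.78 to 0.54 with 1 library left out). Mrpl23 was −0.13 with the lung epithelium covariate, −0.0087 with edgeR and −0.018 with DESeq2. The mitochondrial rRNA mt-Rnr1 was 0.025 with the replicate block, and between 0.0016 and 0.076 without APOE2 replicate 1, APOE2 replicate 8 or APOE3 replicate 2 (0.034, 0.0016 and 0.076; from −0.088 to 0.076 with any 1 left out). Standard errors were largest for Mrps18b, Mrpl23, Mrps28 and Mrps36; the share of depth in them was not tested.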
